A study of Mus musculus with 8 samples.

Results

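The genes described here mark endothelium, the cell layer that lines blood and lymphatic vessels. A list of 35 endothelial gene symbols was looked up in the deposited expression table, and every symbol was found. The table has 31228 entries, and the 35 genes take 36 of them because Ccl21a is listed at 2 positions. Of these entries, 16 mark endothelium in general, 13 mark blood vessels or one of their segments, and 7 mark lymphatic vessels. The list is a set of known markers, and no measured value enters its rule, though it was chosen with earlier results of these data known.

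Polyadenylated RNA was sequenced from ducts of C57BL/6 mice, with no genotype other than the strain and no treatment arm named. The 4 groups were 1 library of extrahepatic bile duct epithelium, 1 library of pancreatic duct epithelium, 3 libraries of bile duct organoids and 3 libraries of pancreatic duct organoids. Organoids are cultures that grow from single cells or fragments into hollow structures in a gel matrix. The epithelia were dissected, minced, digested with collagenase IV and lysed directly, and no sorting of cells is named. Organoids grew in Matrigel in a medium with EGF, R-Spondin-1, Noggin, FGF10 and nicotinamide, at first also with Wnt3A and Y27632, and were taken at passage 3 to 4. VEGF is not among the named components of that medium. Nothing states how many animals gave each library or whether replicates came from separate animals, so p-values between the organoid groups measure only the spread between these samples.

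Endothelial cells are held together by VE-cadherin, claudin-5 and PECAM-1, and they read growth factor and angiopoietin signals through receptor tyrosine kinases such as VEGFR2, TIE1 and TEK. ETS factors such as ERG and SOXF factors such as SOX18 set their identity, and PROX1 with VEGFR3 defines the lymphatic branch. Ducts of the liver and pancreas lie in a stroma fed by a vessel plexus and drained by lymphatics, whereas the duct epithelium itself is not known to form vessels.

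Levels are given as scaled FPKM, that is reads relative to exon length and library size after a further scaling between libraries, so that genes can be compared per length. The deposited values imply between 12876466 and 20828184 reads per library, and the read numbers of every pair of organoid libraries differed by more than counting noise. Over all genes, bile duct organoid 1 and pancreatic duct organoid 2 lay closer to each other (chi-square per degree of freedom of 38.5) than bile duct organoid 1 to its own group (109 and 108) or pancreatic duct organoid 2 to its own (60.2 and 103). Each epithelium library held RNA of many cell types. Summed over 14 markers, duct epithelium genes stood at 3254 (bile duct) and 819 (pancreatic duct) scaled FPKM, and 12 fibroblast markers at 2212 and 2283. The 8 acinar enzyme and factor genes stood at 18121 and 36746. All 14 epithelial markers had at least 1 scaled FPKM in every organoid library, and their sum there lay between 5507 and 11630.

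Summed over all 36 entries, the endothelial genes stood at 1372 scaled FPKM in the bile duct library and 2397 in the pancreatic duct library of epithelium. In the 6 organoid libraries the same sum lay between 8.33 and 25.1. As a share of all FPKM this was 0.296% (bile duct) and 0.527% (pancreatic duct) in the epithelia, and no organoid exceeded 0.00784%. The heat map of levels by library shows both epithelia filled and the organoids nearly empty, apart from 6 genes. In bulk RNA, fewer cells of a type and less RNA per cell cannot be told apart.

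**Figure D1:**
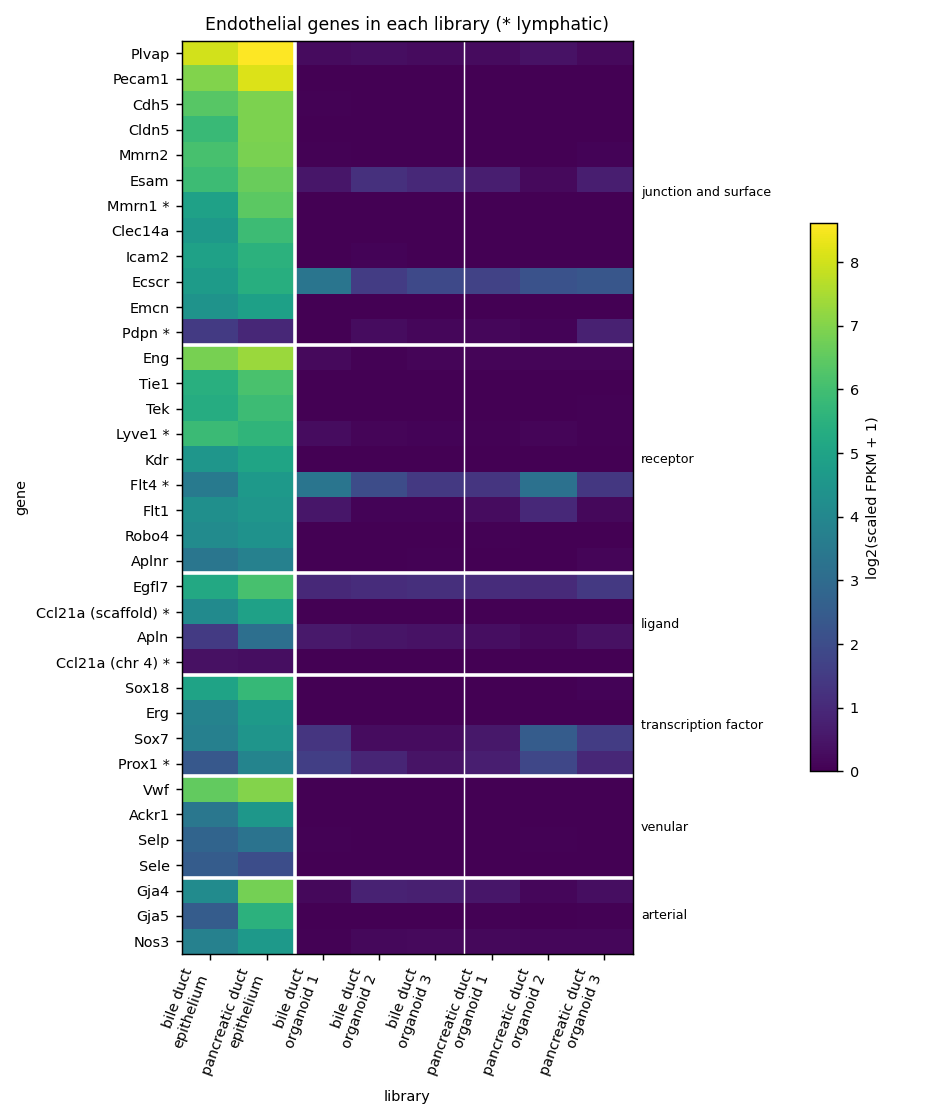
Level of each endothelial gene (y axis, lymphatic genes starred) in each of the 8 libraries (x axis), as log2(scaled FPKM + 1) in colour. Both epithelia show high levels for nearly every gene, while in the organoids only Ecscr, Flt4, Sox7, Prox1, Egfl7 and Esam reach 1 scaled FPKM in any library.

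Between the epithelia, 10 of the 35 entries with at least 1 scaled FPKM on either side were at least 2-fold higher in pancreatic duct, and 0 of 35 were at least 2-fold higher in bile duct. Of all 15524 genes that passed the same minimum, 4.57% were at least 2-fold higher in pancreatic duct and 9.10% at least 2-fold higher in bile duct. Fold was judged on log2(scaled FPKM + 1), which understates the difference of weakly expressed genes. The log2 difference, bile duct minus pancreatic duct, was negative for 32 of all 36 entries and positive for Lyve1, Pdpn, Sele and the chromosome 4 entry of Ccl21a. Its median over the 36 entries was -0.71, beside -0.03 over all genes that passed the minimum. With 1 library per epithelium there is no replicate check and no test, and the intervals given with ratios are exact 95% intervals that cover counting error only.

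Surface and junction proteins held the most abundant endothelial transcripts. Plvap, which forms the diaphragms of endothelial fenestrae, stood at 261 (bile duct) and 390 (pancreatic duct) scaled FPKM in the epithelia, and between 0.155 and 0.335 in the organoids. Pecam1, an adhesion molecule of endothelial contacts at chr11:106654217-106750628 (GRCm38, minus strand), stood at 124 and 287 in the epithelia. Pecam1 was thus 2.32-fold (95% interval 2.26 to 2.37) higher in pancreatic duct, and in the 6 organoids it lay between 0.00750 and 0.0213 scaled FPKM, from 10 reads in all.

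Cdh5 encodes VE-cadherin, the adherens junction cadherin of endothelium. It stood at 81.5 (bile duct) and 119 (pancreatic duct) scaled FPKM in the epithelia. Bile duct organoid 1 held 3 reads of it, at 0.0397 scaled FPKM, and the other 5 organoids held none. In pancreatic duct, Cdh5 was at least 2636-fold lower in the organoids than in the epithelium, taking 3 reads per library as the upper limit of a count of 0. Cldn5, the tight junction claudin of vessels, stood at 56.1 and 119 in the epithelia, a ratio of 2.12 in favour of pancreatic duct, and was listed at 0 in all 6 organoids.

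The other general surface markers followed the same order, with the pancreatic duct library above the bile duct library each time. Mmrn2, an extracellular matrix protein of vessels, stood at 68.1 (bile duct) and 116 (pancreatic duct) scaled FPKM in the epithelia, and at most 0.0673 in an organoid. Clec14a, a lectin-like surface protein of endothelium, stood at 23.6 and 58.2, a ratio of 2.46 (95% interval 2.31 to 2.63), and had 1 read in all organoids. Icam2, a leukocyte ligand, stood at 29.6 and 45.0, and Emcn, a sialomucin of capillaries and veins, at 20.3 and 28.6.

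Emcn had 1 read and Icam2 had 3 reads over the 6 organoids. Esam, a junction molecule shared with platelets, stood at 59.4 (bile duct) and 98.5 (pancreatic duct) scaled FPKM in the epithelia, and Ecscr, a small surface sialoprotein of endothelium, at 25.5 and 40.9. Esam and Ecscr kept a level in organoids that is described further on.

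Among receptors, the differences between the epithelia were smaller. The 9 receptor genes summed to 330 (bile duct) and 447 (pancreatic duct) scaled FPKM in the epithelia, a ratio of 1.35, and only Flt4 was at least 2-fold apart. Eng, the TGF-beta co-receptor endoglin, was the most abundant, at 114 and 159. The angiopoietin receptor Tek stood at 39.1 and 58.4, and its partner Tie1 at 42.3 and 69.3.

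Kdr, the main signalling receptor for VEGF-A, stood at 21.9 (bile duct) and 32.0 (pancreatic duct) scaled FPKM in the epithelia. Flt1, a VEGF receptor that also acts as a decoy, stood at 18.7 and 22.1, and Robo4, a guidance receptor of vessels, at 17.0 and 19.9. The apelin receptor gene Aplnr stood at 9.45 and 12.6. In the organoids Kdr, Tek, Tie1, Robo4 and Aplnr each stayed at or under 0.0835 scaled FPKM in every library, and Eng lay between 0.0346 and 0.151. Flt1 reached 0.977 in pancreatic duct organoid 2 and lay between 0.0484 and 0.424 in the other 5.

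Egfl7, a secreted matrix-bound protein of endothelium, stood at 35.8 (bile duct) and 68.2 (pancreatic duct) scaled FPKM in the epithelia, a ratio of 1.91 (95% interval 1.79 to 2.03). Apln, the ligand of the apelin receptor and a gene of sprouting tip cells, stood at 1.76 and 7.91, a ratio of 4.51 (95% interval 3.43 to 6.01) that rests on 62 and 331 reads. Apln was weak in every culture as well. Its organoid levels were 0.495, 0.401 and 0.353 for bile duct and 0.261, 0.141 and 0.308 for pancreatic duct, below both epithelia without overlap.

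The endothelial transcription factors were higher in pancreatic duct as well. Sox18 stood at 31.0 (bile duct) and 53.9 (pancreatic duct) scaled FPKM in the epithelia, and Sox7, another SOXF factor, at 12.3 and 21.3. Erg, the ETS factor that maintains endothelial identity, stood at 13.5 and 24.8, a ratio of 1.84 (95% interval 1.66 to 2.05). No organoid library held a read of Erg, which was at least 279-fold lower in bile duct organoids and at least 454-fold lower in pancreatic duct organoids than in the epithelium of the same organ. Sox18 had 2 reads over the 6 organoids, both in pancreatic duct organoid 3.

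Since these genes were low together in the organoids, their upstream windows were searched for the ETS core with its flank and for a SOX core. The 250 bases upstream of the annotated RefSeq start were in hand for 22 of the 35 genes. AGGAAG, read on both strands, was present in 12 of the 22 windows (54.5%) and in 29.5% of all 32851 windows of the same length. CGGAAG, which no stretch can match together with AGGAAG on 1 strand, was present in 1 of 22 (4.55%) against 13.6%, and either of them in 12 of 22 (54.5%) against 39.2%. The SOX core AACAAT was present in 3 of 22 (13.6%) against 9.42%. The whole set holds several windows for some genes, whereas each endothelial gene has 1, the window nearest its annotated start. With 1 window per gene chosen the same way for 20595 genes, a comparison added after seeing the data, the shares were 28.9% for AGGAAG, 16.1% for CGGAAG, 40.4% for either and 8.97% for AACAAT. Of the 22 windows, 9 overlap an annotated exon, and 3 start more than 1000 bases from the gene's annotated start, namely those of Gja5 (127709 bases), Mmrn1 (19341) and Egfl7 (1069). These matches are letters in a window and were not tested as binding sites.

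The next 4 windows are examples from genes that were low or absent in the organoids, 2 with a match and 2 without. Each runs 5′ to 3′ on the gene's own strand up to the base before the annotated start, from RefSeq on GRCm38.p6, and capitals mark AGGAAG or CGGAAG on either strand (CTTCCT is AGGAAG on the other strand). The windows are chr2:32646345-32646594 (plus strand) for Eng, chr5:147726012-147726261 (minus) for Flt1, chr16:95586594-95586843 (minus) for Erg and chr16:18776597-18776846 (plus) for Cldn5.
Eng: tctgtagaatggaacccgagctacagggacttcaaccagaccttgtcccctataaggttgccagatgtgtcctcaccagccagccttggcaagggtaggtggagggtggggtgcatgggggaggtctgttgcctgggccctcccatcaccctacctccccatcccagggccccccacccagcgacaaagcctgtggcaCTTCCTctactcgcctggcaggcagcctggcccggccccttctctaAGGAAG
Flt1: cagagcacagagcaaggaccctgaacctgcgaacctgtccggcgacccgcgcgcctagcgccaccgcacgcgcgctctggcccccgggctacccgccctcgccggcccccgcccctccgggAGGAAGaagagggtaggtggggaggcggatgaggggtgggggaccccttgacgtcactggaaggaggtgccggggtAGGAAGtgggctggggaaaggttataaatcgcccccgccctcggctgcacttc
Erg: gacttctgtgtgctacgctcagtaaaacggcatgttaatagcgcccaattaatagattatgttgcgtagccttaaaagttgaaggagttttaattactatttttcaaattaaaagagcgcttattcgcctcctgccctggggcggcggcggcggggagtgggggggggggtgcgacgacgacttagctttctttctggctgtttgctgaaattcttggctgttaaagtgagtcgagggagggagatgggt
Cldn5: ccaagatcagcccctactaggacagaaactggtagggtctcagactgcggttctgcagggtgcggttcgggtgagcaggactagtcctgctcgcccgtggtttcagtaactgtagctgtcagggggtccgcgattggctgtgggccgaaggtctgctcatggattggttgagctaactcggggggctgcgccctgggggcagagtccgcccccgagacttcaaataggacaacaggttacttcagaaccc
The Eng and Flt1 windows hold 2 matches each, and the Erg and Cldn5 windows hold 0. Erg and Cldn5 were both listed at 0 in every organoid.

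The arterial connexin genes differed most between the epithelia. Gja5, at chr3:96904693-97077416 (GRCm38, plus strand), encodes the gap junction protein connexin 40 and stood at 4.70 (bile duct) and 45.0 (pancreatic duct) scaled FPKM in the epithelia. This was a ratio of 9.57 (95% interval 8.50 to 10.8), from 303 and 3433 reads. Gja4, at chr4:127311421-127314039 (minus strand), encodes connexin 37 and stood at 16.7 and 111, a ratio of 6.64 (95% interval 5.90 to 7.49). These were the only endothelial entries of the list at least 4-fold apart on the log2(scaled FPKM + 1) scale, where 0.670% of all genes were 4-fold higher in pancreatic duct. In the organoids Gja5 lay between 0.00878 and 0.0461 scaled FPKM and Gja4 between 0.0987 and 0.776.

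The third arterial gene, Nos3, which makes nitric oxide in endothelium, stood at 12.9 and 23.5 scaled FPKM and was not 2-fold apart on that scale. Nos3 shares 25.2% of its exon bases with the antisense gene Gm15587 and 7.1% with Atg9b on the other strand, and whether counting used strand is not given in the sources used here. In the organoids Nos3 lay between 0.0404 and 0.159, while Atg9b lay between 7.25 and 39.9. The 3 arterial genes together stood at 34.3 (bile duct) and 179 (pancreatic duct), 5.22-fold higher in pancreatic duct, against 1.75-fold for all 36 entries. Of arterial genes outside the list, the Notch target Hey2 stood at 3.50 and 24.5, the Notch ligand Dll4 at 9.68 and 13.0 and Sox17 at 5.72 and 13.0. Others were also closer than Hey2, with Efnb2 at 15.4 and 26.6, Hey1 at 6.28 and 9.68 and Nrp1 at 12.2 and 14.9.

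Genes of veins and venules were closer. Vwf, the von Willebrand factor stored in endothelium and platelets, stood at 92.2 (bile duct) and 129 (pancreatic duct) scaled FPKM in the epithelia, a ratio of 1.40 (95% interval 1.37 to 1.43). Ackr1, the chemokine-binding receptor of venules, stood at 9.58 and 22.7, a ratio of 2.36 (95% interval 1.96 to 2.87). Ackr1 shares 25.7% of its exon bases with Cadm3 on the same strand, which stood at 7.78 and 10.3, so its level is uncertain where reads could belong to either gene.

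The selectins, which capture rolling leukocytes on inflamed venules, went different ways. Selp stood at 5.78 (bile duct) and 8.82 (pancreatic duct) scaled FPKM in the epithelia. Sele stood at 4.72 and 3.08, a ratio of pancreatic duct to bile duct of 0.652 (95% interval 0.509 to 0.834). In the organoids Vwf did not exceed 0.0233 and Selp did not exceed 0.0378, Sele had 1 read, and Ackr1 had none.

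Parted from the blood vessel genes, 3 of the 6 lymphatic entries that passed the minimum were at least 2-fold higher in pancreatic duct, beside 4.57% of all genes. The same held for 4 of 13 blood vessel entries and 3 of 16 general entries. Mmrn1, a multimerin of lymphatic endothelium and platelets at chr6:60924976-60989378 (GRCm38, plus strand), stood at 29.3 (bile duct) and 85.6 (pancreatic duct) scaled FPKM in the epithelia, a ratio of 2.92 (95% interval 2.77 to 3.07). Prox1, the master factor of lymphatic fate at chr1:190118035-190170714 (minus strand), stood at 4.12 and 13.7, a ratio of 3.31 (95% interval 2.96 to 3.71). Flt4, the VEGF-C receptor VEGFR3 at chr11:49609263-49652739 (plus strand), stood at 10.3 and 24.2, a ratio of 2.34 (95% interval 2.17 to 2.52).

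Lyve1 and Pdpn were on the other side. Lyve1, the hyaluronan receptor of lymphatic endothelium at chr7:110850607-110863239 (minus strand), stood at 57.4 (bile duct) and 49.1 (pancreatic duct) scaled FPKM in the epithelia, a ratio of 0.855 (95% interval 0.802 to 0.912). Pdpn, the surface mucin podoplanin, stood at 1.77 and 0.953, a ratio of 0.539 (95% interval 0.305 to 0.935), from 36 and 23 reads. Neither Lyve1 nor Pdpn was 2-fold apart on the log2(scaled FPKM + 1) scale. In the organoids Lyve1 lay between 0.0302 and 0.210 scaled FPKM. Pdpn was at 0, 0.231 and 0.111 in bile duct organoids and at 0.104, 0.0610 and 0.729 in pancreatic duct organoids, where pancreatic duct organoid 3 came close to the epithelium at 0.953.

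Lyve1 is also a gene of resident macrophages, and Pdpn is also made by fibroblasts and mesothelium. The macrophage genes Adgre1, Csf1r and Cd68 were likewise higher in bile duct, at 12.3 against 6.73, 31.4 against 22.4 and 28.4 against 13.6 scaled FPKM, while Mrc1 stood at 12.7 against 14.3. Summed over 13 leukocyte markers, bile duct stood at 1211 and pancreatic duct at 862. The part of these cells in the Lyve1 level was not tested.

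Ccl21a, the chemokine that draws dendritic cells into lymphatics, stood at 16.4 (bile duct) and 29.4 (pancreatic duct) scaled FPKM in its entry on the unplaced scaffold JH584294.1. Its entry on chromosome 4 stood at 0.308 and 0.260, from 3 reads each. Reads may be split among near-identical copies of this gene, so both entries are uncertain, and Ccl21c, another copy, stood at 3.39 and 13.7. Neither Ccl21a entry had a read in an organoid.

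Summed over the 7 lymphatic entries, the level was 120 (bile duct) and 203 (pancreatic duct) scaled FPKM, a log2 difference of -0.76. Without Mmrn1, the most abundant on the mean of both epithelia, the log2 difference was -0.38, and without Lyve1, the most abundant in bile duct, it was -1.31 (an alternative chosen after seeing the data). The 29 blood and general entries had a log2 difference of -0.81 between their sums, so the vessel types lay close to each other as sums. Single genes spread on both sides, from 0.539 (Pdpn) to 3.31 (Prox1) in ratio among lymphatic entries and from 0.652 (Sele) to 9.57 (Gja5) among blood vessel entries.

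**Figure D2:**
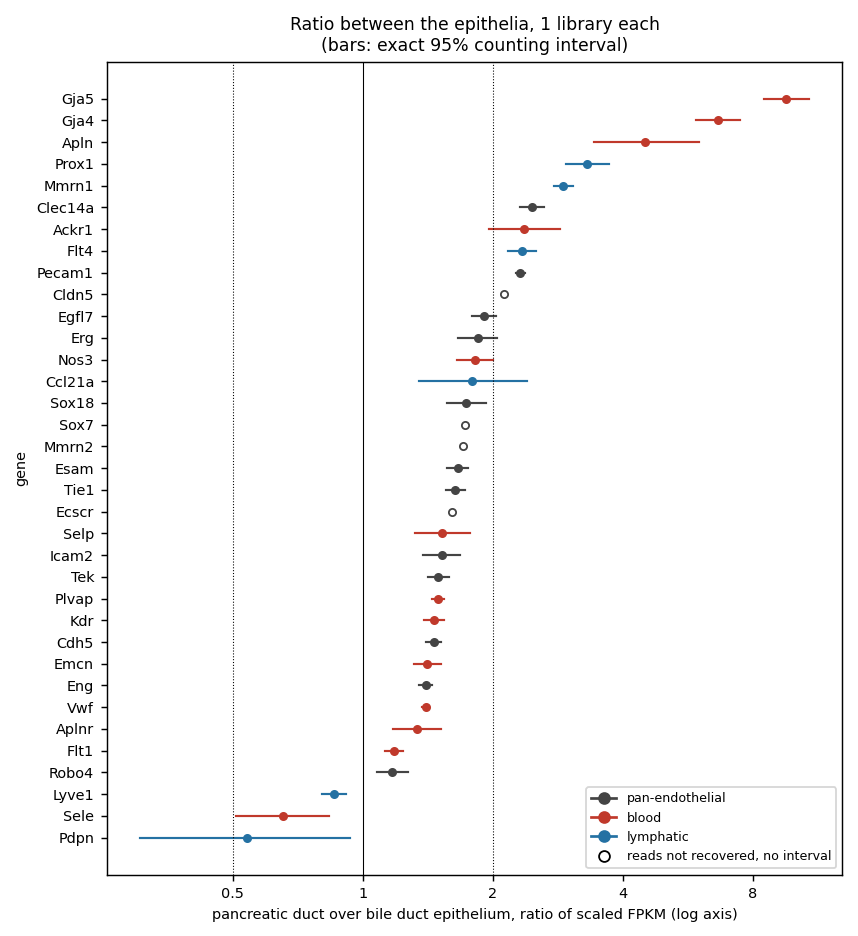
Ratio of pancreatic duct to bile duct epithelium for each endothelial gene (y axis), on a log axis of scaled FPKM (x axis), with 1 library per epithelium. Bars are exact 95% counting intervals where reads could be recovered, and Gja5 at 9.57 and Gja4 at 6.64 lie farthest to the right while Lyve1, Pdpn and Sele lie left of 1. The chromosome 4 entry of Ccl21a, under the minimum in both, is not drawn.

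Other cell types also differed between the epithelia, and in unequal amounts. Duct epithelium markers were 3.97-fold higher in bile duct as a sum, with 12 of 14 at least 2-fold higher there. Smooth muscle and pericyte markers were 1.71-fold higher in pancreatic duct as a sum of 11 genes, and 5 of them were at least 2-fold higher there, among them the mural cell genes Notch3 at 15.0 and 49.5 scaled FPKM and Cspg4 at 4.84 and 20.7. Others of that list were higher in bile duct, with Kcnj8 at 19.0 and 8.54 the 1 gene at least 2-fold so, Rgs5 at 230 and 199 and Des at 154 and 130. The fibroblast sum was 1.03-fold higher in pancreatic duct, and the sums of 6 erythrocyte genes, 398 and 793, were 1.99-fold higher there. The 10 platelet and megakaryocyte markers summed to 55.8 and 65.4. The part of tissue makeup in the endothelial differences was not tested.

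In culture the endothelial genes were low across the list. Of the 35 entries that passed the minimum in bile duct, 34 were at least 2-fold lower in the organoids than in the epithelium with all 3 organoids below it, against 26.3% of 15424 genes. In pancreatic duct this held for 34 of 34, against 25.3% of 15191 genes. Without bile duct organoid 1 the count was 35, and without pancreatic duct organoid 2 it was 34. No entry was at least 2-fold higher in the organoids of either organ, where 12.5% and 15.2% of all genes were. The exception in bile duct was Apln, at a log2 change of -0.96. On FPKM as deposited, without scaling, 33 and 34 entries were lower, beside 23.2% of all genes lower and 17.8% higher in bile duct organoids and 22.1% lower and 20.9% higher in pancreatic duct organoids. Other marker lists fell as fully, with 12 of 12 fibroblast and 11 of 11 smooth muscle and pericyte markers lower in each organ. Of leukocyte markers, 13 of 13 (bile duct) and 11 of 11 (pancreatic duct) were lower. Of mesothelium markers, 5 of 7 were lower in each organ, and of duct epithelium markers 1 of 14 (bile duct) and 0 of 14 (pancreatic duct).

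The median log2 change from epithelium to organoid over all 36 entries was -4.14 in bile duct and -4.99 in pancreatic duct, and the medians of all genes that passed were -0.09 and -0.08. With the entries that have no read at their bound, the medians were -4.12 and -4.99. On this log2(scaled FPKM + 1) scale, which compresses genes near 0, Plvap had the widest change, at -7.76 ± 0.02 (SD, n = 3 organoids) in bile duct and -8.32 ± 0.11 (SD, n = 3) in pancreatic duct. Mmrn1, with no read in any organoid, was at least 1032-fold lower in bile duct organoids and at least 2651-fold lower in pancreatic duct organoids, where the ratio of levels for Plvap was 1717. Each organ has 1 epithelium library, so these changes carry no test.

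The entries listed at 0 in all 6 organoids numbered 6, namely Cldn5, Mmrn1, Erg, Ackr1 and both of Ccl21a. Blood vessel entries summed to between 1.14 and 1.75 in the organoids and lymphatic entries to between 2.23 and 11.3. Most of the lymphatic sum in culture came from Flt4 and Prox1.

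**Figure D3:**
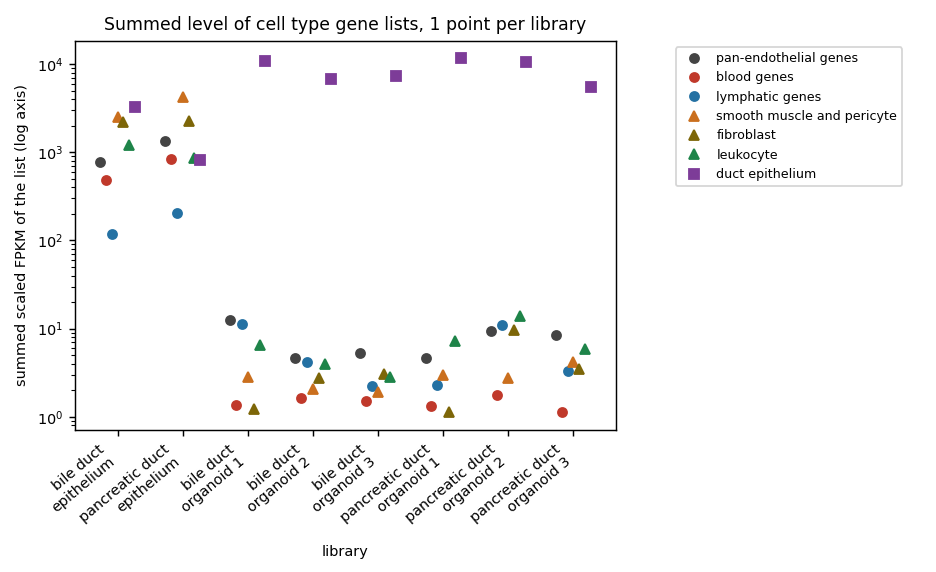
Summed scaled FPKM (y axis, log) of cell type gene lists in each of the 8 libraries (x axis), 1 point per library. The general endothelial genes run from 773 and 1359 in the epithelia to between 4.63 and 12.4 in the organoids, while the duct epithelium sum stays between 819 and 11630.

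Exactly 6 genes reached 1 scaled FPKM in at least 1 organoid, and they came from different roles. Flt4 stood at 9.10, 2.97 and 1.68 in bile duct organoids 1, 2 and 3 and at 1.53, 8.23 and 1.62 in pancreatic duct organoids 1, 2 and 3. Bile duct organoid 1 and pancreatic duct organoid 2 were thus high for Flt4 and the other 4 lower, and bile duct organoid 1 came close to its epithelium at 10.3. The log2 change of Flt4 was -1.25 ± 0.98 (SD, n = 3) in bile duct and -2.68 ± 1.06 (SD, n = 3) in pancreatic duct, and -1.80 without bile duct organoid 1 and -3.29 without pancreatic duct organoid 2.

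Prox1 stood at 2.04, 0.858 and 0.373 scaled FPKM in bile duct organoids and at 0.647, 2.54 and 0.936 in pancreatic duct organoids. The same 2 libraries as for Flt4 were highest within their groups. Prox1 is also a factor of developing liver and pancreas epithelium. Its log2 change was -1.37 ± 0.58 (SD, n = 3) in bile duct and -2.71 ± 0.58 (SD, n = 3) in pancreatic duct, and -1.68 without bile duct organoid 1 and -3.04 without pancreatic duct organoid 2.

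Sox7 stood at 1.50, 0.227 and 0.229 scaled FPKM in bile duct organoids and at 0.478, 4.64 and 1.89 in pancreatic duct organoids. Ecscr stood at 9.21, 1.89 and 2.73 in bile duct organoids and at 2.25, 3.53 and 3.97 in pancreatic duct organoids. Bile duct organoid 1 was again the highest of its group for both, and pancreatic duct organoid 2 was highest of its group for Sox7 but not for Ecscr. Reads of Ecscr may be shared with 1700066B19Rik on the other strand, which overlaps 3.5% of its exon bases and lay between 1.29 and 4.16 in the organoids.

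Egfl7 was even across cultures, at 1.01, 1.12 and 1.21 scaled FPKM in bile duct organoids and at 1.11, 1.02 and 1.69 in pancreatic duct organoids. Egfl7 shares 7.4% of its exon bases with Gm20532 on the same strand, so its level is uncertain where reads could belong to either, and 1.8% with Agpat2 on the other strand, which lay between 15.5 and 29.2 in the organoids. Esam stood at 0.427, 1.27 and 1.00 in bile duct organoids and at 0.660, 0.174 and 0.662 in pancreatic duct organoids. For Esam the order of libraries was reversed, with bile duct organoid 1 and pancreatic duct organoid 2 the lowest of their groups.

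**Figure D4:**
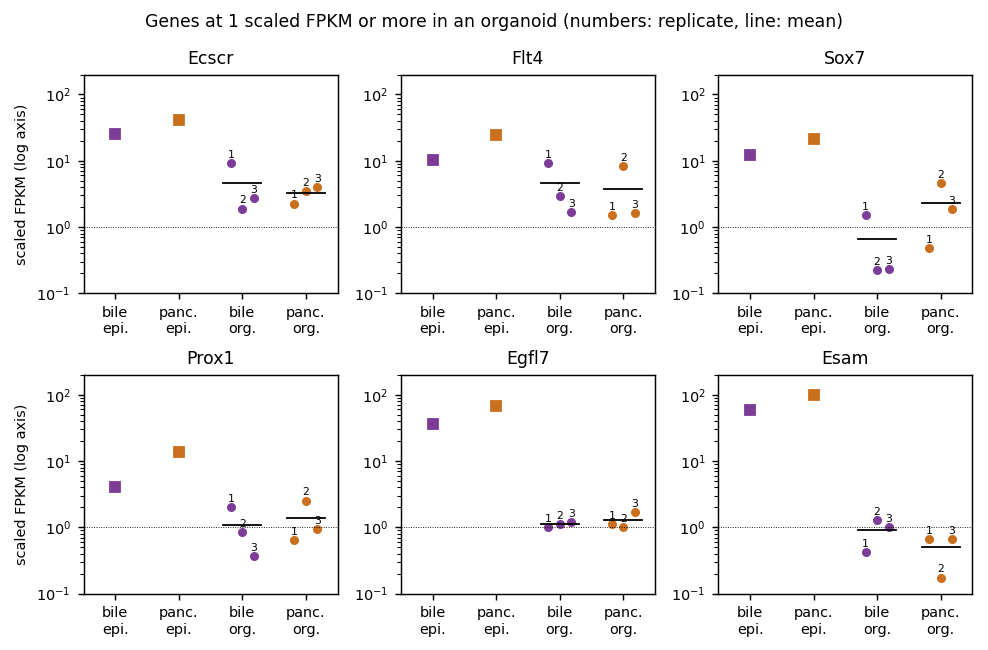
Scaled FPKM (y axis, log) of the 6 endothelial genes that reached 1 scaled FPKM in an organoid, in each epithelium (1 library) and each organoid group (numbers are replicates, lines are means). For Flt4 and Prox1, bile duct organoid 1 and pancreatic duct organoid 2 stand above the other cultures, with Flt4 at 9.10 and 8.23.

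The defining genes of endothelium stayed near 0 in the 2 libraries where Flt4 was highest. In bile duct organoid 1, where Flt4 stood at 9.10 and Ecscr at 9.21 scaled FPKM, Pecam1 stood at 0.00893, Cdh5 at 0.0397 and Kdr at 0.0123, and Erg, Cldn5, Tie1 and Emcn were at 0. In pancreatic duct organoid 2, Pecam1 stood at 0.0178 and Kdr at 0.00614, and Cdh5, Erg, Cldn5 and Tie1 were at 0. Some others of the list were highest in the same libraries at low levels, Flt1 at 0.424 and 0.977 against 0.0484 to 0.229 in the other 4. In bile duct organoid 1 alone this held for Eng at 0.151 and Lyve1 at 0.210, and in pancreatic duct organoid 2 alone for Plvap at 0.335. Genes outside the list, chosen after their values were seen, also followed at higher levels. Sox17 stood at 5.95 and 2.29 in the 2 libraries, against 0.489 to 1.68 in the other 4 and 5.72 in bile duct epithelium. Vcam1 stood at 62.4 and 7.18, against 0.403 to 3.42 in the other 4 and 12.7 in bile duct epithelium. Nr2f2 went the other way, lowest of its group in both, at 6.71 and 1.99. The 6 genes were picked by their organoid level, and Prox1 reached that level in these 2 libraries alone, so no sum over the 6 is compared between libraries. The fibroblast sum in the organoids lay between 1.14 and 9.52, highest in pancreatic duct organoid 2, where Col6a1 alone stood at 8.15. In bile duct organoid 1 it was 1.24, the lowest of its group, against 2.76 and 3.09. The leukocyte sum was 6.50 in bile duct organoid 1, against 3.97 and 2.86 in its group, and 13.7 in pancreatic duct organoid 2, against 7.29 and 5.91. Most of it in these 2 libraries was Cd68, at 4.51 and 10.6. Csf1r and Lyz2 were highest in pancreatic duct organoid 1, at 3.37 and 0.815, against 0.987 and 0.716 in pancreatic duct organoid 2. The erythrocyte sum was 2.11 in bile duct organoid 1 and 6.51 in pancreatic duct organoid 2, and at most 0.252 in the other 4. The part of these markers in the 6 genes was not tested.

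Between the organoid groups, no endothelial gene passed the test. Only 4 had at least 1 FPKM in at least 3 organoids, namely Ecscr, Egfl7, Flt4 and Sox7, and limma called 0 of 4 at an adjusted p under 0.05, against 0% of 12094 genes. At an unadjusted p under 0.05 the count was 0 of 4, against 2.54% of all genes tested, and the groups overlapped for all 4, where 6.76% of all genes did not overlap. A voom fit on recovered reads called 0 of the 2 endothelial genes it could test and 1 of 10249 genes.

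Sox7 had the widest difference, with bile duct organoids lower by a log2 difference of -0.91 (95% interval -2.25 to 0.44, limma adjusted p = 1.00). The difference of Flt4 was 0.28 (95% interval -1.39 to 1.96), that of Ecscr 0.20 (95% interval -0.98 to 1.39) and that of Egfl7 -0.09 (95% interval -0.51 to 0.32), each with a limma adjusted p of 1.00. These intervals leave room for more than a 2-fold difference in either direction for Flt4, while that of Egfl7 lies within 1 log2 unit. For Flt4, the direction turned without bile duct organoid 1, at -0.27, and for Ecscr too, at -0.35. Sox7 moved to -1.40 without pancreatic duct organoid 1. Without both bile duct organoid 1 and pancreatic duct organoid 2, an alternative chosen after seeing the data, limma called 0 of 3 endothelial genes and 0 of 11634 genes, and at an unadjusted p under 0.05 the counts were 0 and 891.

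A further 92 genes of the endothelial pathways were looked at as lists outside the 35. Between the epithelia, of the 89 that passed the minimum, 14 were at least 2-fold higher in pancreatic duct (4.57% of all genes) and 1, Angptl4, in bile duct (9.10% of all genes), with a median log2 difference of -0.50. From epithelium to organoid, 69 of 89 were at least 2-fold lower in bile duct (26.3% of all genes) and 74 of 89 in pancreatic duct (25.3% of all genes), 1 and 2 were at least 2-fold higher, and 30 kept at least 1 scaled FPKM in all 6 organoids. These lists hold more genes that other cell types also use.

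Of 17 angiogenic ligands, 15 passed the minimum, and 11 of these were at least 2-fold lower in the organoids of each organ and 0 higher. For this and the next lists, the shares of all genes lower were again 26.3% in bile duct and 25.3% in pancreatic duct. Vegfa, the main growth signal for vessels, stood at 27.1 (bile duct) and 28.7 (pancreatic duct) scaled FPKM in the epithelia and between 23.6 and 60.0 in the organoids, a log2 change of 0.63 ± 0.34 (SD, n = 3) in bile duct and 0.38 ± 0.66 (SD, n = 3) in pancreatic duct. Cxcl12, a stromal chemokine, stood at 26.1 and 28.6 in the epithelia and at most 0.0203 in an organoid. Vegfb, Efnb2 and Angptl4 were not 2-fold apart from epithelium to organoid in either organ. The lymphatic growth factor Vegfc stood at 13.7 and 23.4 in the epithelia and between 0.0360 and 1.83 in the organoids.

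Of 19 further receptors and signalling genes, 17 were lower in the organoids of each organ. Thbd, the anticoagulant receptor thrombomodulin, had log2 changes of -6.59 and -6.84 in bile duct and pancreatic duct, Adgrf5 of -5.95 and -6.20, and Ptprb, a phosphatase acting on TEK, of -4.37 and -5.47. Procr, the protein C receptor, had changes of -1.78 and -2.25. The ephrin receptor Ephb4 was not 2-fold apart, at 0.07 and -0.29.

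Of 21 further transcription factors, 15 were lower in bile duct organoids and 18 in pancreatic duct organoids. Klf2, a shear-responsive factor, had log2 changes of -6.15 and -6.49, Epas1 of -3.67 and -4.51 and Klf4 of -2.39 and -2.02. Ets2, at -0.16 and 0.14, and Elk3, at -0.94 and -1.37, are broadly expressed ETS factors. Fli1, an ETS factor of blood and endothelium, stood at 14.4 and 18.5 scaled FPKM in the epithelia and had no value above 0 in an organoid.

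Of 26 further surface genes, 25 passed the minimum, and 19 of these were lower in bile duct organoids and 20 in pancreatic duct organoids. Those with the highest mean level are also known from epithelium. Cav1, the caveolin of caveolae, had log2 changes of -1.82 and -3.27, the water channel Aqp1 of -4.18 and -2.68 and Podxl of -1.10 and -2.33. F11r, a junction molecule of epithelium and endothelium, was higher in organoids, at 0.64 in bile duct and 1.02 in pancreatic duct, of which the second passed 2-fold. Cav2 had changes of 0.36 and -0.89.

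All 11 further lymphatic genes were lower in bile duct than in pancreatic duct epithelium in sign, and 5 of them by at least 2-fold, namely Klhl4, Tbx1, Ackr4, Ccl21c and Cldn11. Ackr4, a scavenger receptor for CCL21, stood at 5.95 and 14.6 scaled FPKM, and Klhl4 at 8.09 and 23.5. In the organoids 9 of 11 were lower in bile duct and 10 in pancreatic duct. Gja1, which encodes connexin 43 of lymphatic valves and many other cells, was the 1 gene of the 92 at least 2-fold higher in the organoids of both organs, at log2 changes of 1.77 ± 0.07 and 1.55 ± 0.37 (SD, n = 3 each). Gja1 stood at 12.7 and 15.4 in the epithelia and between 39.4 and 63.0 in the organoids. Stab1, a scavenger receptor, had changes of -4.99 and -5.52, Itga9 of -3.95 and -4.65, Angpt2 of -3.41 and -4.40 and Nfatc1 of -1.03 and -1.31.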

How the data were processed

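Gene expression was deposited by the authors as FPKM in 1 table with 1 column per library; the unit was read from the values. Per the submitters' processing notes, Bowtie2 2.2.3, HISAT2 2.1.0, TopHat2 and HTSeq 0.6.0 were used, with no role given. Coordinates are in GRCm38. No per-sample column was left aside. FPKM times GENCODE M21 exon length was a whole multiple of a library step (within 0.05 read) in all 8 libraries for 90.5% of genes and for 32 of the 36 endothelial entries, not for Mmrn2, Cldn5, Ecscr and Sox7. Read numbers are these multiples.

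FPKM were divided by a trimmed mean of log ratios over genes with at least 1 FPKM in any library, trimming 30% of ratios and 5% of levels. With 1 library per epithelium, genes at least 2-fold apart on log2(scaled FPKM + 1) with at least 1 scaled FPKM on a side were counted. Between organoid groups, log2(FPKM + 1) was tested for genes reaching 1 FPKM in 3 or more organoids with limma 3.58.1 in R 4.3.3. The test was two-sided, with Benjamini-Hochberg adjustment over all genes tested and a threshold of 0.05. How small a difference between the organoid groups it could find was not tested. The genes and lists were chosen with earlier results of these data known.

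Levels are given for genes with at least 10 scaled FPKM in an epithelium, at least 1 in an organoid, a 2-fold difference between the epithelia, or a lymphatic role, with organoids as a range, an upper limit or read numbers where all lay below 1. Selp and Sele, which meet none of these conditions, are given as well. From each further endothelial list, the 5 genes of highest mean level were named, with others chosen after their values were seen; cell type lists are given as sums. Alternatives changed the scaling, the pseudocount, the minimum, the fold, the block, the tool and the libraries. Promoter windows are RefSeq's on GRCm38.p6.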

Additional observations from a re-analysis of the deposited data

Results flagged for a closer look

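The genes of the lists and those that share exon bases with an endothelial gene were screened where they had at least 1 scaled FPKM, in each organ, in the epithelium or on the mean of the organoids. For 4 of them outside the list of 35, the change from epithelium to organoid went in opposite directions in the 2 organs in every culture, and the difference between organs was not tested, since each organ has 1 epithelium library. Cav2, a caveolin of endothelium and epithelium, changed by 0.36 (bile duct) and by -0.89 (pancreatic duct) on the log2 scale. Its epithelium levels were 67.2 and 121 scaled FPKM, and its organoid levels ran from 73.8 to 98.6 (bile duct) and from 51.6 to 86.1 (pancreatic duct), so the organoid groups overlapped. Krt14, a keratin carried in the mesothelium list, had log2 changes of -1.09 (bile duct) and 2.74 (pancreatic duct). Krt14 stood at 3.50 (bile duct) and 0.300 (pancreatic duct) scaled FPKM in the epithelia, at 1.27, 1.04 and 1.06 in bile duct organoids and at 15.3, 17.1 and 1.2 in pancreatic duct organoids. Elf3, an epithelial ETS factor, had log2 changes of -1.75 (bile duct) and 0.64 (pancreatic duct). Elf3 stood at 94.4 and 24.5 scaled FPKM in the epithelia, at 26.0, 28.6 and 27.7 in bile duct organoids and at 32.2, 53.9 and 33.1 in pancreatic duct organoids. Agpat2, which overlaps Egfl7, had log2 changes of -0.51 and 0.96. Agpat2 stood at 32.3 and 9.97 in the epithelia, at 15.5, 24.7 and 29.2 in bile duct organoids and at 22.2, 16.9 and 22.1 in pancreatic duct organoids. Fgb, a hepatocyte gene under that minimum in bile duct, also went opposite ways, at -0.69 and 0.75. None of the 35 endothelial genes showed such opposite changes.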

How the results depend on the processing

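The count of endothelial genes at least 2-fold higher in pancreatic duct epithelium was 10, and it stayed 10 as deposited, with median-of-ratios scaling, a pseudocount of 0.1 and either other minimum. It was 7 of the 26 entries that passed without 9 genes also known from other cells, and 2 at 4-fold. The log2 difference of summed levels, bile duct minus pancreatic duct epithelium, was -0.81 for all 36 entries, -0.79 as deposited, -0.85 without Plvap and -0.71 as the median of single differences. For the blood and general entries these values were -0.81, -0.79, -0.86 and -0.70, and for lymphatic entries -0.76, with -0.38 without Mmrn1 and -1.31 without Lyve1 (chosen after seeing the data). The count lower in bile duct organoids lay between 26 and 35 over all alternatives and that in pancreatic duct organoids between 26 and 34. The lowest counts came without those 9 genes, where all 26 entries that passed were lower in each organ, beside 26.3% (bile duct) and 25.3% (pancreatic duct) of all genes. FPKM as deposited moved the median log2 change from epithelium to organoid of all genes from -0.09 to 0.16 (bile duct) and from -0.08 to 0.19 (pancreatic duct), and that of the endothelial entries to -3.96 and -4.77.

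Between organoid groups, 0 endothelial genes were called under every alternative, and at an unadjusted p under 0.05 only Sox7 without pancreatic duct organoid 1 and Apln with no minimum. Leaving out pancreatic duct organoid 3, 11 genes were called, none of them endothelial. With each organoid left out, the log2 difference ran from -0.27 to 0.91 for Flt4, from -0.17 to 0.039 (without pancreatic duct organoid 3) for Egfl7, from -0.35 to 0.57 for Ecscr and, in the 3 of 6 fits that could test it, from -1.40 to -0.73 for Sox7 (-1.66 with a pseudocount of 0.1); Flt4 was negative without bile duct organoid 1 (-0.27), pancreatic duct organoid 1 (-0.04) or 3 (-0.01). Without bile duct organoid 1 and pancreatic duct organoid 2 together, also chosen after seeing the data, Ecscr was at -0.29. With the replicate number as a block, 0 endothelial genes and 0 genes overall were called. Deviations of same-numbered organoids from their group means correlated at -0.10, -0.44 and 0.48, and those of bile duct organoid 1 and pancreatic duct organoid 2 at 0.65. With deviations from means of 3 samples, these values cannot decide whether the numbers pair the samples. One epithelium library per organ limits all other comparisons, and the few organoid reads per gene limit ratios there.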
